A study of Mus musculus with 4 samples.

Results

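Transcription factors of the developing striatum were followed through a single-cell RNA-Seq table of the mouse brain at E18.5, late in gestation. The 10 genes were chosen by name as regulators of striatal neurons: Isl1, Ebf1, Foxp1, Foxp2, Foxp4, Zfp503, Six3, Meis2, Meis1 and Ikzf1. All 10 were present among the 16600 genes of the table. Cells that carried the surface protein CD24, a pan-neuronal marker, and lacked CD45, a hematopoietic marker, were sorted from the cortex of C57BL/6J fetuses. The 2 groups were wild type (Setd5+/+) and Setd5+/- fetuses, with 2 fetuses and 2 libraries each, named here WT3, WT6, Het5 and Het9 after the prefixes of the cell names. Setd5 encodes a SET-domain protein of chromatin, and the Setd5+/- fetuses lack 1 working copy in every cell, including cells outside the striatum. They carry the Setd5GFP allele, which the study uses as a heterozygous knockout. All 4 libraries were made with 10x Genomics 3′ chemistry, in which each captured RNA molecule is counted once through a unique molecular identifier (UMI). A level below is a mean over cells of counts per 10000 UMIs of the cell, and a gene was called detected in a cell with at least 1 UMI.

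Striatal projection neurons are GABAergic cells born in the lateral ganglionic eminence. They fall into a direct pathway class, marked in the adult by the dopamine receptor Drd1, and an indirect pathway class, marked by Drd2 and Adora2a. The LIM-homeodomain factor Isl1 and the helix-loop-helix factor Ebf1 act in direct pathway neurons, and the homeodomain factor Six3 acts, with Sp8 and Sp9, in indirect pathway neurons. The forkhead factors Foxp1, Foxp2 and Foxp4 and the zinc finger factor Zfp503 (Nolz1) are expressed by immature striatal neurons. Meis2 and Meis1 are TALE homeodomain factors of the subpallium, and Ikzf1 (Ikaros) is a zinc finger factor known from lymphocytes and from enkephalin-expressing striatal neurons.

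The genes lie on autosomes, and the coordinates here are those of GENCODE M21 on GRCm38. Isl1 spans chr13:116298281-116309689 on the minus strand, Ebf1 chr11:44617317-45008091 on the plus strand and Six3 chr17:85613608-85629302 on the plus strand. A gene on the opposite strand that is also in the table overlaps Ebf1 (Gm12158), Six3 (Gm28528), Foxp4 (Gm15556) and Meis1 (Gm16141), and Gm20696 overlaps Foxp1 on the same strand. The use of strand in counting is not given in the sources used here, so reads of such pairs may not have been told apart. RefSeq promoters on GRCm38.p6, which run from 250 bases before a start to 50 bases after it, were found for 9 of the 10 genes. The promoters of Isl1, Ebf1 and Six3 are shown, since the detection of these 3 genes divided the striatal cells as described below. They are the first listed starts, at chr13:116309639-116309938 (minus strand), chr11:44617850-44618149 (plus strand) and chr17:85620584-85620883 (plus strand), written 5′ to 3′ along the gene with a match to TGACAG, a Meis core word, in capitals.
Isl1: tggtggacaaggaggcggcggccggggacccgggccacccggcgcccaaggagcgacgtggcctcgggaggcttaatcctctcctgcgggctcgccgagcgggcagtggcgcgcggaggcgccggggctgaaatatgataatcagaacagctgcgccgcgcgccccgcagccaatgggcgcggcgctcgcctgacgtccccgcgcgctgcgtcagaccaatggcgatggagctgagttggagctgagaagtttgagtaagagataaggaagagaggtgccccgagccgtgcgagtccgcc
Ebf1: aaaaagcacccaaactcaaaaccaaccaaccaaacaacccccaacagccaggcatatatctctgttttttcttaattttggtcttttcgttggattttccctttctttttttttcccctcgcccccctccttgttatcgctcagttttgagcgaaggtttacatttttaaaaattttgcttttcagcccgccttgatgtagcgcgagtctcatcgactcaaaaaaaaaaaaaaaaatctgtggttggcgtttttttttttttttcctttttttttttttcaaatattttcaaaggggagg
Six3: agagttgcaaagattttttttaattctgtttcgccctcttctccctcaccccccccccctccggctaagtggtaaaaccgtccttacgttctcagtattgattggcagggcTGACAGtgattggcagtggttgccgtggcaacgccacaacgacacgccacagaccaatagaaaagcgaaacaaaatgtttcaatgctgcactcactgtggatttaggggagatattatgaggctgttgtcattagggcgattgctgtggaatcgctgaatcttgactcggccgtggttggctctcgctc
The Six3 window holds TGACAG 139 bases before the start, and the windows of Isl1 and Ebf1 shown here hold none on either strand. Of all 32851 RefSeq promoters, 19.2% hold this word on either strand. Among the members it was also found in the second Foxp1 start, so 2 of 9 genes have it. The forkhead word TGTTTAC was in none of the members' windows and in 3.65% of all promoters. The Ebf word CCCNNGGG was in the first Foxp1 start and the first Ikzf1 start and in 13.7% of all promoters. The words do not overlap one another in the members' windows, and a match is a description of the letters only.

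The libraries held 1445 to 1954 cells and 8205330 to 11742956 UMIs. The Setd5 level was 1.18 and 1.07 for WT3 and WT6 against 0.540 and 0.586 for Het5 and Het9, a log2 difference of -0.89 (SE 0.075, limma with Benjamini-Hochberg adjustment, adjusted p = 0.00696). Xist was at 20.6 and 21.5 in the wild-type libraries and at 0.152 and 0.310 in the Setd5+/- libraries, so sex and genotype cannot be told apart in any comparison below. In all, 277 cells had a barcode that occurs in more than 1 library, and 239 of them lay in the melanocyte-like and immune-like clusters.

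Striatal neurons were sought without the 10 genes. With the members and Setd5 left out of the variable genes, the cells formed 13 clusters, of which 1, with 370 cells, had 7 of 14 striatal marker genes among its 50 leading genes (among them Rarb, Adora2a, Rxrg, Bcl11b, Gucy1a3 and Pbx3). It is called striatal neuron-like below. Bcl11b (Ctip2), a zinc finger factor of striatal and deep-layer cortical neurons, was detected in 92.7% of its cells and in 47.6% of the other cells. Gucy1a3 was detected in 50.8% against 5.98% and Pbx3 in 39.2% against 11.7%, while Rarb (9.19% against 0.549%), Adora2a (8.65% against 0.275%) and Rxrg (5.68% against 0.388%) were found in few of its cells. Pde10a (11.1% against 12.6%), Ppp1r1b (0.811% against 2.00%) and Pdyn (0 against 0.0484%) were found less often inside the cluster than outside. The genes that define mature striatal neurons were close to 0, with Drd1 in 1 of 370 cells, Tac1 in 5, Penk in 8, Ppp1r1b in 3 and Pdyn in 0, which allows up to 3 counts in these cells. Drd2 was not among the genes of the table. Dcx, a gene of migrating young neurons, was detected in 87.6% of the cells, as in other young neurons (96.2% and 95.8% of the excitatory neuron-like cells) and unlike melanocyte-like cells (0.685%). Gad2, a GABA synthesis enzyme, was detected in 79.5%, against 4.08% and 4.99% of the excitatory neuron-like cells and 59.8% of the migrating interneuron-like cells. Of the 370 cells, 4 had a barcode found in more than 1 library and 0 were called doublets.

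Of the 10 genes, 9 had their highest level in the striatal neuron-like cluster, and Ikzf1 had its own in the immune-like cluster. These shares and levels are a description of clusters drawn from the same cells, and no test was made of 1 cluster against another. Because free RNA can add UMIs to cells that do not express a gene, shares of cells with a UMI are set beside those in other cell types.

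**Figure D1:**
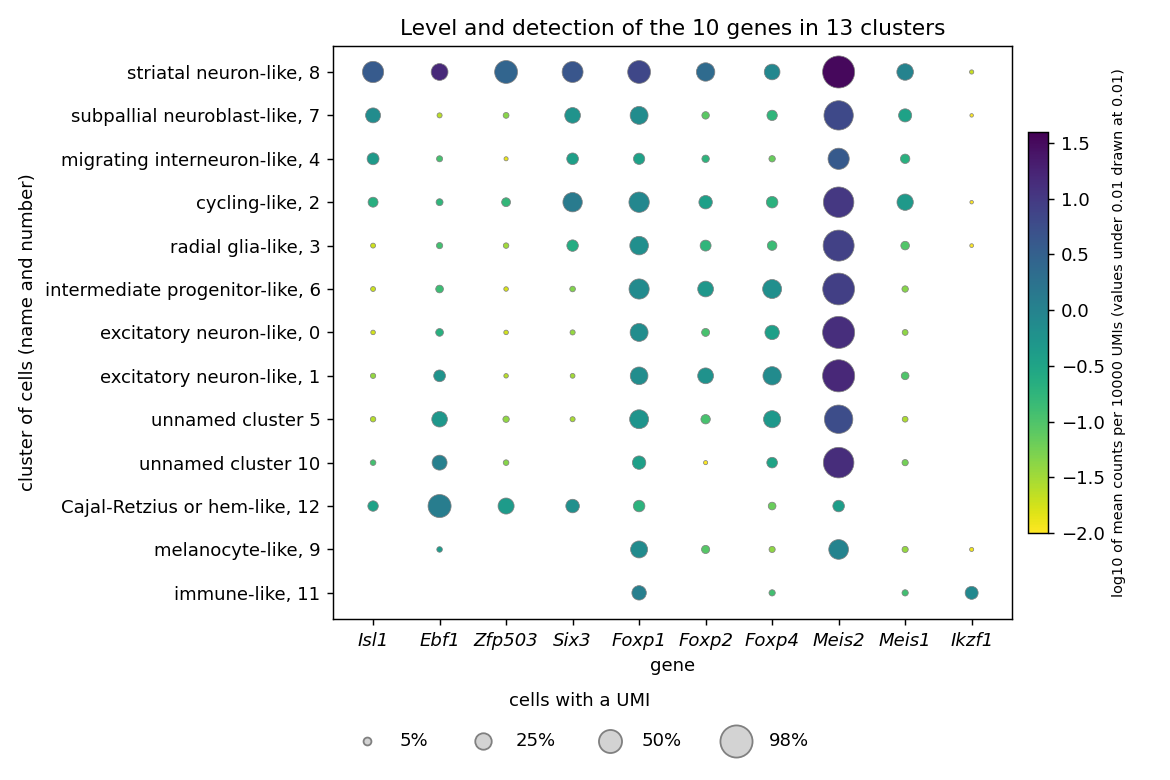
Level and detection of the 10 genes (columns) in the 13 clusters of cells (rows, named from fixed marker lists where these allow it). Color is the log10 of the mean counts per 10000 UMIs over the 4 libraries, weighted alike, the area of a dot grows with the share of cells with a UMI, and no dot is drawn at 0 UMIs. The striatal neuron-like row holds the highest level of 9 genes, Meis2 is present in nearly all rows, and Ikzf1 stands out in the immune-like row alone.

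In the striatal neuron-like cells the level of Isl1 was between 4.19 (WT6) and 5.20 (WT3) in wild-type libraries, and it was 3.43 in Het5 and 2.59 in Het9. The lowest of these libraries lay above every library of the next cluster, the subpallial neuroblast-like cells, where the mean was 0.726 ± 0.40 (SD, n = 4). Isl1 was detected in 42.2% of striatal neuron-like cells, at a median of 3631 UMIs per cell, in 20.5% of neuroblast-like cells and in 12.7% of migrating interneuron-like cells. In the 2 excitatory neuron-like clusters, with deeper cells of 5562 and 5193 UMIs, it was detected in 1.09% and 1.76%.

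Ebf1 was unevenly spread within the striatal cluster. Its level was 21.4 and 18.4 in the wild-type libraries and 9.58 and 12.5 in the Setd5+/- libraries, yet it was detected in only 97 of the 370 cells (26.2%). A detected cell held a median of 19 Ebf1 UMIs and the highest held 69. The striatal cluster supplied 63.1% of all Ebf1 UMIs from 370 of 6562 cells. The next cluster was the Cajal-Retzius or hem-like one, at 1.23 ± 0.38 (SD, n = 4) in 50% of its 42 cells, which are deeper at a median of 7144 UMIs. Ebf1 was found in 1.56% of neuroblast-like cells, at a median of 5515 UMIs against 3631 in striatal cells. With all cells thinned to 3000 UMIs, Ebf1 was held by 23.8% of Cajal-Retzius or hem-like, 22.2% of striatal and 0.532% of neuroblast-like cells. The levels of the Cajal-Retzius or hem-like and the striatal cluster did not overlap.

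Zfp503 had most of its UMIs in the striatal cells. The levels were 2.72 and 3.27 in wild-type against 2.64 and 2.51 in Setd5+/- libraries, and 67.1% of all its UMIs came from the striatal neuron-like cells, against 63.1% for Ebf1. It was detected in 49.2% of them and in 1.06% to 6.61% of the cells of the progenitor-like clusters (intermediate progenitor-like, radial glia-like and cycling-like). Of the clusters other than the striatal one, the Cajal-Retzius or hem-like cluster had the highest level, 0.434 ± 0.27 (SD, n = 4). Over the 13 cluster means, genes with a pattern like that of Zfp503 included Tnr (Pearson r = 0.95) and Lypd1 (r = 0.92). These likenesses are over 13 clusters of the same libraries and were searched among 11880 genes.

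Six3 was at 3.53, 3.86, 4.22 and 5.89 in WT3, WT6, Het5 and Het9 and was detected in 41.1% of striatal neuron-like cells. Outside the cluster it was found in dividing and in subpallial cells. The cycling-like cluster held 1.30 ± 0.19 (SD, n = 4), and its lowest library lay above the highest of the next cluster in the order. Six3 was found in 35.1% of cycling-like, 22.6% of neuroblast-like, 16.7% of Cajal-Retzius or hem-like, 12.1% of interneuron-like and 11.7% of radial glia-like cells, against 1.63% and 1.29% in the 2 excitatory neuron-like clusters. After thinning to 3000 UMIs, the share was 38.9% in striatal, 20.5% in cycling-like and 15.7% in neuroblast-like cells. Meis1 had a similar order, with 0.968 ± 0.28 in striatal, 0.462 ± 0.097 in cycling-like and 0.336 ± 0.13 in neuroblast-like cells (SD, n = 4), and the ranges of the cycling-like and neuroblast-like cells overlapped. Meis1 was detected in 25.4% of the striatal cells and in 2.36% and 4.81% of the excitatory neuron-like cells.

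The 3 forkhead genes differed in how far they were shared with the cortex. Foxp1 was at 5.27, 7.28, 7.57 and 7.40 in the striatal cells of WT3, WT6, Het5 and Het9, with 48.9% of cells detected. In the excitatory neuron-like clusters it was at 0.712 ± 0.061 and 0.716 ± 0.16 (SD, n = 4), with 29.9% and 29.0% of cells detected. After thinning, the shares were 41.1% of striatal cells, 20.3% and 17.7% of excitatory neuron-like cells, 22.4% of cycling-like, 22.1% of melanocyte-like and 9.84% of interneuron-like cells. From the immune-like cluster at 1.16 down to the Cajal-Retzius or hem-like cluster at 0.191, no neighbors in the order of Foxp1 levels were separated over the 4 libraries. The level and share in the cortical neurons were thus not set apart from those in melanocyte-like cells (0.743 ± 0.25, SD, n = 4), and free RNA and a low level in the cells cannot be told apart there. Of the 146 melanocyte-like cells, 140 carried a barcode that occurs in all 4 libraries, so the 4 libraries are not independent counts of them.

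Foxp2, known for its part in vocal and motor circuits, was at 2.26 ± 0.56 in striatal cells and next at 0.583 ± 0.11 in excitatory neuron-like cluster 1 (SD, n = 4). Its 2 excitatory neuron-like clusters differed, with 23.0% of cells in cluster 1 and 5.17% in cluster 0, or 15.8% and 3.49% after thinning. Foxp4 was the least striatal of the 3. Its level in striatal cells was 0.844, 0.504, 1.26 and 0.800 in WT3, WT6, Het5 and Het9, which overlapped the 0.628 to 0.900 of excitatory neuron-like cluster 1. It was found in 22.7% of striatal cells, 31.3% of cluster 1 and 2.74% of melanocyte-like cells, or 20%, 19.4% and 2.46% after thinning. Only 6.80% of all Foxp4 UMIs came from the striatal cluster, against 25.5% for Foxp1 and 22.8% for Foxp2.

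Meis2 was found in most cells of the table. It was detected in 84.5% of all cells and in 97.8% of striatal neuron-like cells, where the levels were 33.3, 35.9, 32.3 and 32.3 in WT3, WT6, Het5 and Het9. Excitatory neuron-like clusters 1 and 0 were at 15.9 ± 1.6 and 13.3 ± 1.1 (SD, n = 4), with 98.2% and 97.6% of cells detected, and an unnamed cluster of 141 cells lay between them at a mean of 13.7 (11.7 to 15.8 over libraries), overlapping both. The subpallial neuroblast-like cells held 6.40 ± 0.83 in 81.6% of cells, and the migrating interneuron-like cells 3.96 ± 0.47 in 42.2%. Thinned to 3000 UMIs, these shares were 67.3% and 40.9%. Meis2 had 0 UMIs in the 105 immune-like cells, at a median of 1923 UMIs, which allows a share of cells with a UMI of up to 2.86%, and was found in 36.3% of melanocyte-like cells at 0.983. At the thinned depth the melanocyte-like share was 27.0%, below that of the interneuron-like cells.

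Ikzf1 was hardly a gene of these striatal cells. It was detected in 3 of 370, with 1 UMI each, and in 0 of WT3, 1 of WT6, 1 of Het5 and 1 of Het9. In the immune-like cluster it was at 0.844 ± 0.24 (SD, n = 4), in 15.2% of cells at a median of 1923 UMIs. Of the 27 cells with an Ikzf1 UMI, 16 were immune-like, and 14 of these carried a barcode that occurs in all 4 libraries, so the 4 libraries are not independent counts of such cells. Genes with a pattern like that of Ikzf1 over clusters included Tyrobp and Fgl2, genes of myeloid cells, both at r = 0.999. The sort had gated against CD45, which marks such cells.

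Within the striatal neuron-like cluster the 10 genes were detected together more often than elsewhere. After thinning to 3000 UMIs, which left 275 of the 370 cells, a striatal cell held a mean of 3.40 and 3.47 members in WT3 and WT6 and of 3.65 and 3.53 in Het5 and Het9. The other cells held 1.39, 1.37, 1.28 and 1.24. At least 4 members were found in 48% of striatal cells and in 1.74% of the other 5761 cells of that depth, and 1 striatal cell held none. Both wild-type means of thinned striatal cells lay below both Setd5+/- means, and without thinning the genotypes overlapped, at 3.78 (WT3), 3.88 (WT6), 3.98 (Het5) and 3.80 (Het9). This difference was not tested. With Meis2 left out, 2 or more members were found in 74.5% of striatal and 10.1% of other cells. Without thinning, the means were 3.86 in striatal and 1.74 in other cells.

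Pairs of members differed in how often they met in a cell. Isl1 went with Ebf1 and Zfp503, and Six3 went apart from all 3 and from Foxp2. The phi coefficient, a correlation of detected against undetected over the 275 cells, was 0.38 for Isl1 and Ebf1, with 0.22 to 0.48 in single libraries. It was 0.33 for Isl1 and Zfp503, 0.25 for Ebf1 and Foxp2 and 0.21 for Ebf1 and Zfp503, positive in 4 of 4 libraries. It was -0.37 for Ebf1 and Six3, -0.30 for Isl1 and Six3, -0.24 for Zfp503 and Six3 and -0.22 for Foxp2 and Six3, negative in 4 of 4. These are descriptions over cells that share 4 libraries, with sparse counts. For Foxp1 and Foxp4 with Isl1, Ebf1 or Six3, phi over all cells was -0.12 to 0.16 and -0.29 to 0.34 in single libraries, and each of these pairs had libraries of both signs. Meis2 was detected in 267 of the 275 cells, so its phi says little.

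**Figure D2:**
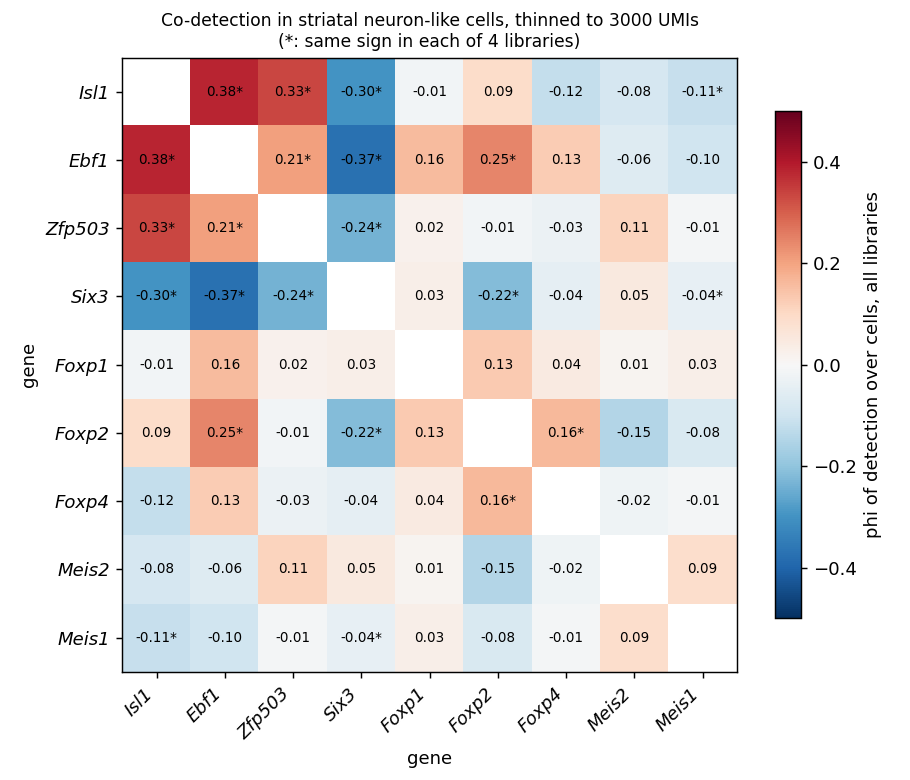
Phi coefficient of detection for each pair of 9 genes (Ikzf1 left out, with 3 UMIs) over 275 striatal neuron-like cells thinned to 3000 UMIs. Red marks pairs detected together, blue pairs detected apart, and a star the same sign in each of the 4 libraries. Isl1, Ebf1 and Zfp503 form a red block, and the Six3 row is blue against those 3 and Foxp2.

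By the presence of Isl1, Ebf1 and Six3 alone, the 275 cells fell into unequal groups. Six3 alone was found in 83, Isl1 with Ebf1 in 44, Isl1 alone in 41, Isl1 with Six3 in 21 and Ebf1 alone in 14, while Ebf1 met Six3 in 2 cells without Isl1 and in 1 with it. None of the 3 was detected in 69 cells. Most Ebf1 cells also held Isl1: 73.8% of Ebf1 cells did, against 29.0% of cells without Ebf1. Of Isl1 cells 42.1% held Ebf1, against 9.52% of cells without Isl1. At full depth, 89 cells held Ebf1 without Six3 and 144 Six3 without Ebf1, and 8 held both. The 2 kinds of cells had similar depth, with medians of 3615 and 3715 UMIs. Foxp1 was at 11.2 in the Ebf1 cells and 5.26 in the Six3 cells, and Foxp2 at 4.49 and 0.956. Meis2 was at 34.0 and 35.2.

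The genes that go with Isl1 were tested over the libraries. In each library the thinned striatal cells with an Isl1 UMI (23, 45, 13 and 26 cells in WT3, WT6, Het5 and Het9) were compared with those without (27, 63, 27 and 51 cells), with limma and library as a block. Of 7353 genes tested, 17 (0.231%) were higher in Isl1-detected cells and 30 (0.408%) lower. Among the 8 members tested, 2 were higher and 1 lower. Ebf1 was at 18.1, 17.1, 10.5 and 30.9 in Isl1-detected cells and at 7.28, 4.81, 4.69 and 4.05 in the others, a log2 difference of 1.79 (SE 0.15, limma with Benjamini-Hochberg adjustment, adjusted p = 1.03e-17). Each library had more Ebf1 in its Isl1-detected cells, and the 2 sets of 4 values did not overlap. The SE of limma also draws on other genes of similar level, so it is not the spread of that gene between libraries alone. Zfp503 was at 3.77, 3.56, 4.36 and 6.03 against 1.73, 1.80, 1.85 and 1.31, a log2 difference of 1.33 (SE 0.23, limma with Benjamini-Hochberg adjustment, adjusted p = 2.66e-05).

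Six3 was the member that was lower. It was at 1.74, 2.89, 1.03 and 0.513 in Isl1-detected and at 5.31, 3.39, 5.68 and 7.91 in undetected cells of WT3, WT6, Het5 and Het9, a log2 difference of -1.96 (SE 0.26, limma with Benjamini-Hochberg adjustment, adjusted p = 8.61e-09). The difference was small in WT6 and large in Het9, and with a pseudocount of 0.01 in place of 0.1 the adjusted p was 0.130. Foxp2 was higher in 4 of 4 libraries and not called (log2 0.70, adjusted p = 0.395), and Meis1 lower in 4 of 4 and not called (log2 -0.91, adjusted p = 0.607). Foxp1 was higher in Het9 and lower in the other 3 libraries and was not called (log2 -0.54, adjusted p = 0.309). Foxp4 was not called (log2 -0.90, adjusted p = 0.585). Meis2 differed by 0.05 on the log2 scale (SE 0.083, adjusted p = 0.960), with 32.6 and 31.2 on average.

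Other genes with large differences stood on both sides. Higher in Isl1-detected cells were the POU factor Pou3f1 (7.62 against 2.48), the HMG-box gene Tox (1.05 against 0.213) and A330102I10Rik (0.682 against 0.0737). Lower were the neural stem cell factor Sox2 (0.598 against 4.27), the cyclin Ccnd2 (4.66 against 29.2), Cdca7 (0.376 against 1.79), the zinc finger factor Tshz1 (0.0733 against 1.07) and the somatostatin receptor Sstr2. Sstr2 was at 0 in all Isl1-detected cells and at 0.731 in the others, which makes it at least 7.82-fold lower against a floor of 3 counts over the 107 cells. Each was called with the same sign in 4 of 4 libraries.

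Of the lists, the indirect pathway genes had 3 of 7 members tested (4 in the table), all with a negative difference, and 1 called lower, Sp9 (1.24 against 5.94, log2 -2.21, SE 0.23). Adora2a, a receptor gene of indirect pathway neurons, had 0.120 against 0.632 (log2 -1.99, limma with Benjamini-Hochberg adjustment, adjusted p = 0.0592). The direct pathway list had 1 of 7 tested, Sfxn1, not called (log2 0.38), and its other genes in the table were below the filter on low values. Among 14 tested of 17 other striatal regulators, 3 were called higher (Bcl11b, Zfhx3 and Pbx3) and 4 lower (among them Dlx2, Sp9 and Tshz1), with a median log2 difference of -0.22 against -0.03 over all genes tested. Neither the striosome list (2 of 5 tested) nor the upper layer list (6 of 7 tested) had a called gene. The deep layer list (3 of 7 tested) had Bcl11b higher and Tle4 lower.

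**Figure D3:**
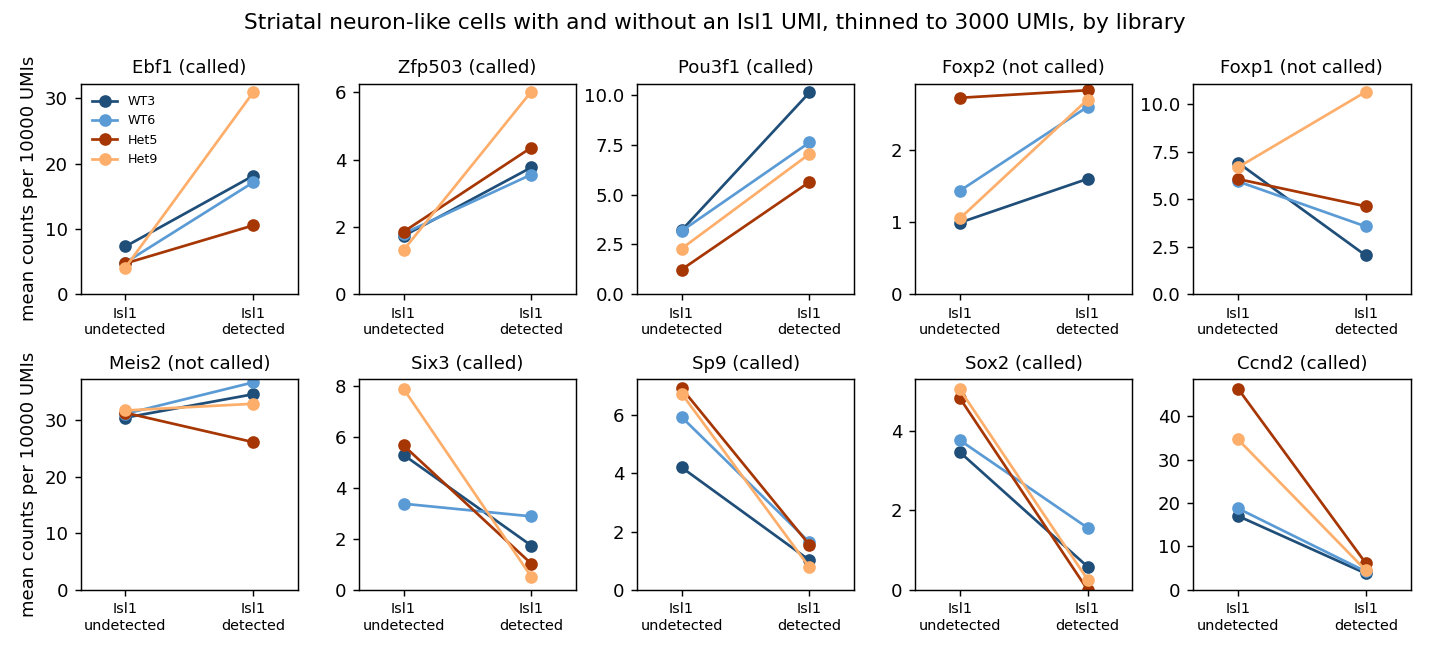
Mean counts per 10000 UMIs of 10 genes in striatal neuron-like cells without (left) and with (right) an Isl1 UMI, 1 line per library, all cells thinned to 3000 UMIs; each vertical axis starts at 0. Ebf1, Zfp503 and Pou3f1 rise in all 4 libraries, Six3, Sp9, Sox2 and Ccnd2 fall in all 4, and Foxp1 and Meis2 have lines of both directions.

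Against genotype, Ebf1 was the one member called lower in the Setd5+/- striatal cells. Of 7513 genes tested in the striatal neuron-like cluster, 9 (0.12%) were called, and 1 of the 9 members tested was among them. Ebf1 was at 21.4 and 18.4 in wild-type and 9.58 and 12.5 in Setd5+/- cells, a log2 difference of -0.85 (SE 0.14, limma with Benjamini-Hochberg adjustment, adjusted p = 0.000322). Isl1, whose values are given above, did not overlap either but was not called (log2 -0.63, SE 0.18, adjusted p = 0.474). The Ebf1 level rested on 10 (Het5) to 45 (WT6) detected cells per library. The SE of Ebf1 also draws on other genes of similar level and need not cover this uneven spread over cells. Without WT3 the Ebf1 difference was -0.74 (adjusted p = 0.341), without Het5 it was -0.66 (adjusted p = 0.219), and on UMIs summed per library it was -0.69 (adjusted p = 0.416), so the call was lost in these 3 settings. In this small cluster the number of called genes rose to 45 without Het9, 15 without Het5 and 14 with no filter on low values. With 1 library left out, the lone library of its genotype is assumed to vary like the others.

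**Figure D4:**
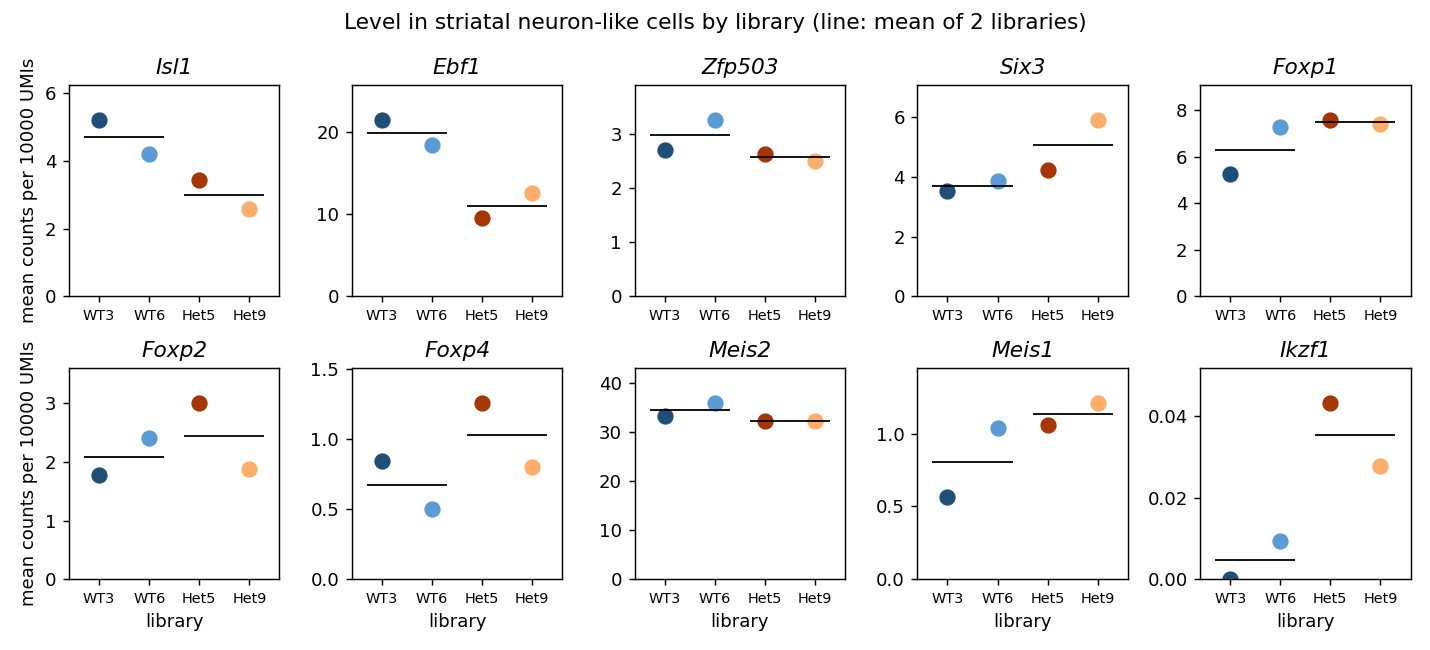
Mean counts per 10000 UMIs of each gene in the striatal neuron-like cells of each library (points, 54 to 159 cells each), with the mean of the 2 libraries of a genotype as a line; each axis starts at 0. Ebf1 and Isl1 are lower in both Setd5+/- libraries, Six3 is higher in both, Meis2 is at 32.3 to 35.9, and Ikzf1 rests on 3 UMIs.

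Ebf1 was below wild type both in its share of cells and in its level within them. Ebf1 was detected in 20 of 65 and 45 of 159 wild-type striatal cells, or 30.8% (exact 95% binomial interval 19.9% to 43.4%) and 28.3% (21.5% to 36.0%). In Het5 and Het9 it was detected in 10 of 54 (9.25% to 31.4%) and 22 of 92 cells, the latter 23.9% (15.6% to 33.9%). These intervals cover counting error only, and they overlap. Within detected cells the level was 69.7 and 65.0 in wild-type and 51.8 and 52.4 in Setd5+/- libraries, without overlap. Isl1 was detected in 46.2% and 48.4% of wild-type and 31.5% and 34.8% of Setd5+/- striatal cells, and Six3 in 36.9% and 37.1% against 48.1% and 46.7%. Within detected cells the levels of both genes overlapped between genotypes, at 11.3 and 8.65 against 10.9 and 7.43 for Isl1 and at 9.57 and 10.4 against 8.77 and 12.6 for Six3. Within Isl1-detected cells thinned to 3000 UMIs, Ebf1 was at 18.1 and 17.1 against 10.5 and 30.9, so the genotypes overlapped there.

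In the same comparison Six3 was at 3.53 and 3.86 against 4.22 and 5.89 (log2 0.42, SE 0.18, limma with Benjamini-Hochberg adjustment, adjusted p = 0.822), higher in both Setd5+/- libraries and not called. The libraries of the 2 genotypes did not overlap for 7 of the 9 members tested, against 34.1% of all genes tested. Foxp1 (log2 0.27), Meis1 (0.50) and Six3 were higher in this sense, and Isl1, Ebf1, Zfp503 (-0.20) and Meis2 (-0.10) lower. Foxp2 and Foxp4 overlapped. Besides Ebf1 and 5 genes linked to sex or to the X or Y chromosome (Xist, Tsix, Eif2s3y, Ddx3y and Erdr1), the called genes were Pou3f1 (log2 -0.82), Epha5 (-1.28) and Ccnd2 (1.19), singled out after their values were seen. Pou3f1, Ebf1 and Ccnd2 had also been called between Isl1-detected and undetected cells, at 1.64, 1.79 and -2.52. The 2 comparisons share their cells. Their part in one another was not tested. None of the 17 other striatal regulators (14 tested), the direct (1 tested) and indirect (3 tested) pathway genes or the striosome genes (2 tested) was called by genotype in the striatal cells.

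Striatal neuron-like cells made up 4.47% of WT3 (65 cells, exact 95% binomial interval 3.47% to 5.67%), 8.14% of WT6 (159 cells, 6.96% to 9.44%), 3.16% of Het5 (54 cells, 2.38% to 4.10%) and 6.37% of Het9 (92 cells, 5.16% to 7.75%). The share varied as much within a genotype as between them, and the difference of the means, -1.54 percentage points, had p = 0.667 in the exact two-sided permutation test, in which 2 against 2 libraries cannot go below 0.333. In limma on the log2 odds the difference was -0.45 (SE 0.36), with an adjusted p of 0.509 over the clusters in limma with Benjamini-Hochberg adjustment.

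These shares moved with the level of some members over all cells of a library. The order of the shares, WT6, Het9, WT3 and Het5 from high to low, was also the order of the levels over all cells of Zfp503, Six3, Foxp1 and Meis1. With 4 libraries no correlation was computed. Zfp503 over all cells was 0.314, 0.193, 0.180 and 0.117 in that order, a 2.69-fold range against 2.58-fold for the share and 1.30-fold for the level within striatal cells. In each library 67.4% to 84.6% of the summed Zfp503 level came from the striatal neuron-like cells. In WT3 that share was below the 77.6% of Ebf1. Ebf1 over all cells was 1.83, 1.05, 1.24 and 0.597 in the same order, with 50.7% to 81.8% from the striatal cells. Meis2 over all cells stayed between 10.6 and 11.8, with 9.61% to 27.1% from the striatal cells.

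**Figure D5:**
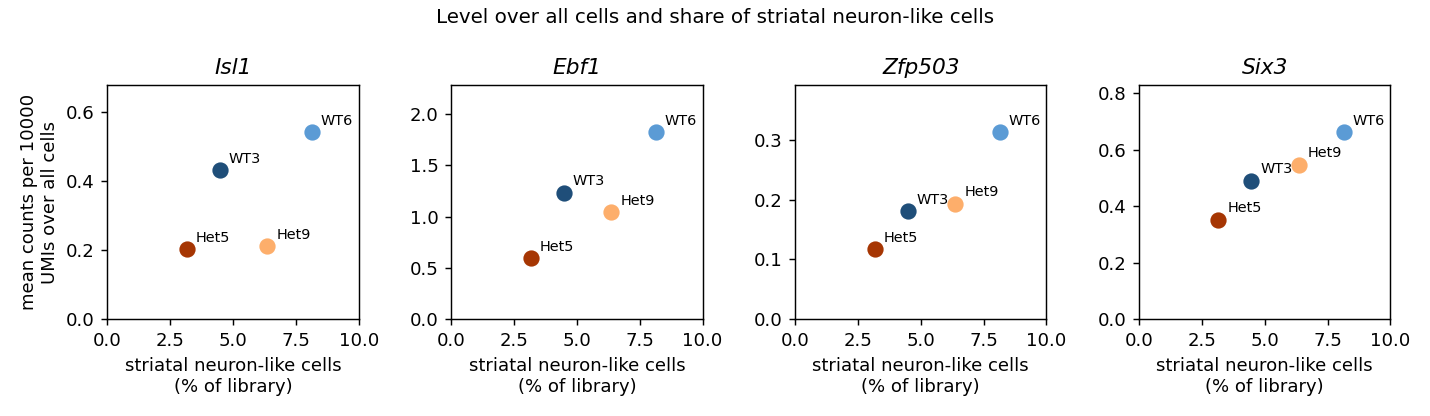
Mean counts per 10000 UMIs over all cells of a library (vertical axis) against the share of striatal neuron-like cells in it (horizontal axis, %) for Isl1, Ebf1, Zfp503 and Six3, 1 point per library. Zfp503 and Six3 follow the order of the shares, and Isl1 is at 0.203 and 0.211 in both Setd5+/- libraries although their shares are 3.16% and 6.37%.

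Isl1 departed from the share. Over all cells it was at 0.431 and 0.542 in WT3 and WT6 and at 0.203 and 0.211 in Het5 and Het9, a log2 difference of -0.93 (SE 0.10, limma with Benjamini-Hochberg adjustment, adjusted p = 0.0367). It was the 1 member of 9 tested that was called among 7 genes called of 8137 (0.086%). The adjusted p was 0.0705 without WT6 (difference -0.79), 0.0676 without Het9 (-0.95), 0.116 with no filter on low values and 0.0781 with a pseudocount of 1. The number of called genes was 41 without Het5 and 13 without WT3. Outside the striatal cluster Isl1 was at 0.208 and 0.219 in wild-type and at 0.0979 and 0.0497 in Setd5+/- cells. Ebf1 over all cells was lower in both Setd5+/- libraries and was not called (log2 -0.84, SE 0.24, adjusted p = 0.845). Fewer cells that express a gene and less RNA per cell cannot be told apart in a mean over all cells.

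Among subpallial cells outside the striatal cluster, Isl1 and Six3 were both lower in the Setd5+/- libraries, where a group of Zic1 and Zic4 cells that held both genes was also smaller. In the subpallial neuroblast-like (385 cells) and migrating interneuron-like (569 cells) clusters together, 27 of 7726 genes (0.349%) were called, and 2 of the 7 members tested were among them. Isl1 was at 0.922 and 0.760 in WT3 and WT6 and at 0.430 and 0.132 in Het5 and Het9, a log2 difference of -1.42 (SE 0.27, limma with Benjamini-Hochberg adjustment, adjusted p = 0.0182). Six3 was at 0.678 and 0.774 against 0.232 and 0.146, a log2 difference of -1.53 (SE 0.21, limma with Benjamini-Hochberg adjustment, adjusted p = 0.000641). Both were lower in each of the 2 clusters: Six3 was at 0.693 and 0.878 against 0.357 and 0.325 in neuroblast-like cells and at 0.669 and 0.716 against 0.130 and 0 in interneuron-like cells. Isl1 was detected in 31.8% and 21.4% of wild-type and 20.2% and 5.56% of Setd5+/- neuroblast-like cells.

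A group of cells with both genes was also unevenly spread over the libraries. At the raised resolution described next, a cluster of 162 cells led by Fgf15, Zic4 and Zic1 was split off, 155 of them from the interneuron-like cluster. It held 47 cells (3.23%) of WT3, 87 (4.45%) of WT6, 24 (1.40%) of Het5 and 4 (0.277%) of Het9. Of its cells within the 2 clusters, Six3 was detected in 40% and 41.7% of those of WT3 and WT6, 18.2% of 22 in Het5 and 0 of 4 in Het9, and Isl1 in 46.7%, 45.2%, 36.4% and 0%. With these cells left out, an alternative chosen after seeing the data, neither gene was called: Isl1 had a log2 difference of -0.97 (limma with Benjamini-Hochberg adjustment, adjusted p = 0.104) and Six3 of -0.97 (adjusted p = 0.0933). Fewer such cells and less RNA per cell cannot be told apart in the means over both clusters.

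These calls depended on where the clusters were drawn. With the clustering resolution raised by 0.3, Six3 had a log2 difference of -0.67 (adjusted p = 0.998) and Isl1 was not called either (adjusted p = 0.163). With it lowered by 0.3, no striatal and no neuroblast-like cluster was found, and the 1 interneuron-like cluster of 986 cells held 567 interneuron-like and 369 striatal cells of the clusters used here. In that mixture Six3 had 0.18 (adjusted p = 0.984) and Isl1 -0.68 (adjusted p = 0.0643). Isl1 also lost its call without Het9 (-0.82, adjusted p = 0.111), with no filter on low values (adjusted p = 0.157), with the members kept among the variable genes (adjusted p = 0.0580) and with globin-rich cells kept (adjusted p = 0.0548). The called count was 99 without Het5, 47 without WT3 and 13 without Het9.

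In the excitatory neuron-like clusters, 0 of the 5 members tested was called by genotype, where 10 of 7740 genes (0.129%) were called by limma and 390 had an unadjusted p under 0.05. Foxp1 was at 0.710 and 0.858 in wild-type and 0.631 and 0.667 in Setd5+/- cells, lower in both and not called (log2 -0.23, SE 0.10, limma with Benjamini-Hochberg adjustment, adjusted p = 0.924). Meis2 was at 16.0 and 12.9 against 14.8 and 14.7 (log2 0.04, adjusted p = 0.966). The called count was 68 without WT3, 52 without WT6 and 5 without Het9.

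Foxp1 was too shallow in cortical cells to divide them by expression: a thinned cell held a mean of 0.243 and 0.211 Foxp1 UMIs in the 2 excitatory neuron-like clusters, against 1.75 in striatal cells. A cell without a Foxp1 UMI can therefore have the same level as one with a UMI, and a low count of called genes does not show that cells of high and low Foxp1 were alike. In the excitatory neuron-like clusters, thinned to 3000 UMIs, 88 to 104 Foxp1-detected cells per library were compared with 391 to 454 others. Of 7715 genes tested, 0 (0%) were higher and 2 (0.0259%) were lower in Foxp1-detected cells, while 423 had an unadjusted p under 0.05. The 2 were the orphan receptor Nr2f2, at 0.354 against 0.712 and lower in 4 of 4 libraries (log2 -0.83, SE 0.18, limma with Benjamini-Hochberg adjustment, adjusted p = 0.0127), and the proneural factor Neurod1, at 2.28 against 3.01 and lower in 3 of 4 (log2 -0.44, SE 0.093, adjusted p = 0.0127), named here because only 2 genes were called. No member was called, and none of the tested deep layer (5 of 7) or upper layer (7 of 7) cortical genes was. The called genes were 0 without WT3, 0 without WT6 and 1 without Het9, and 17 when cells were not thinned.

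The split by Meis2 concerned subpallial cells. In the neuroblast-like and interneuron-like clusters together, 165 of 7632 genes (2.16%) were higher and 172 (2.25%) lower in Meis2-detected cells, with 72 to 169 detected and 57 to 140 undetected cells per library after thinning. Meis2 was detected in 81.6% of neuroblast-like and 42.2% of interneuron-like cells, so this comparison also set the 2 clusters against each other, and the interneuron-like cluster had been named from genes of the list given next. Of the migrating interneuron list, 7 of 8 genes were tested and all 7 were called lower (among them Lhx6, Npy, Sst, Maf, Erbb4 and Nxph1), with a median log2 difference of -1.85 against -0.02 over all genes tested. Npy, a neuropeptide of cortical interneurons, was at 0.394 against 2.77 (log2 -2.52, SE 0.18), and the serotonin receptor Htr3a was at 0.275 against 1.33 (log2 -2.19, SE 0.23). Lhx6, the factor of interneurons from the medial ganglionic eminence, was at 0.453 against 1.77. Plxna4, a semaphorin receptor, was also lower (0.0437 against 0.478).

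The genes on the Meis2 side included Zfhx3, a homeobox factor of striatal neurons (1.10 against 0.410), the vesicular monoamine transporter Slc18a2 (0.791 against 0.167), Islr2 (3.60 against 0.977), Msra (0.605 against 0.218) and Dcbld1 (0.458 against 0.147), each in 4 of 4 libraries. Of the 6 members tested, 2 were called, both higher. Isl1 was at 1.59, 1.07, 0.568 and 0.185 in Meis2-detected cells of WT3, WT6, Het5 and Het9 and at 0.278, 0.738, 0.319 and 0.117 in the others (log2 0.93, SE 0.24, limma with Benjamini-Hochberg adjustment, adjusted p = 0.00646). Foxp4 was at 0.229 against 0.0443 (log2 1.19, SE 0.32, limma with Benjamini-Hochberg adjustment, adjusted p = 0.0112). Isl1 was not called without WT3 (0.51, adjusted p = 0.458) or without Het5 (1.01, adjusted p = 0.0526), and Foxp4 was not without WT3 (1.08, adjusted p = 0.117) or without WT6 (1.04, adjusted p = 0.236). At 2000 UMIs the Foxp4 difference was 0.64 (adjusted p = 0.488).

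Far fewer genes were called within single clusters. Within the interneuron-like cluster alone, 19 genes were higher and 20 lower, and within the neuroblast-like cluster alone 6 were higher and 4 lower. Of the migrating interneuron list, 5 of 7 genes tested were called lower within the interneuron-like cluster (Lhx6, Npy, Maf, Erbb4 and Nxph1), with a median log2 difference of -1.61 against -0.03 over all genes, and 0 of 3 tested were called within the neuroblast-like cluster. The Isl1 difference was 1.70 (adjusted p = 0.0844) in the first and -0.045 (adjusted p = 0.988) in the second, and the Foxp4 difference was 0.99 (adjusted p = 0.640) and 1.29 (adjusted p = 0.562). Leaving out single libraries gave 168 (WT3), 181 (WT6) and 179 (Het5) called genes.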

How the data were processed

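The authors deposited 1 table of 16600 genes by 6562 cells from 4 libraries, on a natural log scale: ln of 1 plus the counts per 10000 UMIs of a cell. Per the submitters' processing notes, Cell Ranger 2.1, Seurat 2.3.0 and mm10 were used. How cells were filtered and whether counting used strand is not stated there. Taken out of the log, 100% of the 14848520 values above 0 were whole multiples, within 0.001, of the lowest value in their cell, and UMI counts (1258 to 14996 per cell) were recovered from them. A library is known by the prefix of its cells' names, which shows its genotype but not which of the labelled replicates it is. No count model was fitted.

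The 10 genes, the gene lists and the tests were chosen with earlier results of these data known. Cells with at least 10% globin UMIs (30 cells) were set aside, a choice made after seeing the data. The others were clustered in scanpy 1.11.5 (2000 variable genes without the members and Setd5, 20 components, 20 neighbors, Leiden at the lowest resolution, 0.4, that came closest to 14 clusters). A cluster was named where at least 3 markers of a fixed list stood among its 50 leading genes. Scrublet called 44 doublets (0.671%), which were kept and were left out in an alternative.

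Between genotypes and between cells with and without a member, limma 3.58.1 with a mean-variance trend was run in R 4.3.3 on log2(mean counts per 10000 of a library + 0.1), for genes with a mean of at least 0.1, with Benjamini-Hochberg adjustment over all genes tested and a threshold of 0.05. Fold changes on this scale understate those of low genes. With the trend, the SE of a gene also draws on other genes of similar level. It is not the spread of that gene between fetuses alone. For splits by detection, cells were thinned to 3000 UMIs, shallower cells were left out, and library was a block. Shares were compared with limma on the log2 odds (0.5 added) and the exact permutation test. The 2 libraries of a genotype are 2 fetuses. The limma step was checked on counts simulated per library, with the same spread for every gene. That check does not cover genes spread unevenly over cells, such as Ebf1. Intervals are exact 95% binomial intervals and cover counting error only, and a count of 0 allows up to 3 counts.

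The genes named are the 10 members, Setd5, in each split the 5 called genes of largest difference in each direction with the same sign in 4 libraries, the 3 genes of most similar pattern over clusters, and the members of the fixed lists. Some genes that this rule names are not reported here. Alternatives tried were a pseudocount of 0.01 or 1, no filter, summed UMIs, no thinning or 2000 UMIs, no block, resolutions shifted by 0.3, members kept, doublets left out and each library left out. Added after seeing the data were globin-rich cells kept, shared barcodes left out, the Meis2 split in single clusters and the Zic1 and Zic4 cells left out.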

Additional observations from a re-analysis of the deposited data

Results flagged for a closer look

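For 2 members the genotype effects went in opposite directions in 2 sets of cells, with no overlap of the genotypes' libraries in either set. Foxp2, Foxp4 and Meis2 also had effects of opposite sign, without meeting that condition. Six3 was higher in both Setd5+/- libraries in the striatal neuron-like cluster (log2 0.42) and lower in both in the subpallial neuroblast-like and interneuron-like clusters (log2 -1.53). The difference of the 2 effects, taken per library, was 1.95 (SE 0.37), with an unadjusted p of 0.00105 and an adjusted p of 0.892 over 7028 genes in limma with Benjamini-Hochberg adjustment. Foxp1 was higher in both Setd5+/- libraries in the striatal neuron-like cluster (log2 0.27) and lower in both in the excitatory neuron-like clusters (log2 -0.23), a difference of 0.50 (SE 0.27, adjusted p = 0.851 over 7024 genes). Neither difference passed the threshold. With the Zic1 and Zic4 cells left out, the Six3 effect in the second set was -0.97 (adjusted p = 0.0933). Both tests were chosen after the data had been seen.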

How the results depend on the processing

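Both the counts of called genes and the members called by genotype depended on the processing. Ebf1 in the striatal cluster lost its call in 3 alternatives, Isl1 over all cells in 4, and in neuroblast-like and interneuron-like cells Isl1 in 7 and Six3 in 3. In the striatal cluster 9 genes were called by genotype, against 14 with no filter, 5 on summed UMIs, 14 at the higher resolution and 6 to 45 with 1 library left out. Over all cells the count was 7, and 7 to 41 with 1 library left out. In excitatory neuron-like cells it was 10, and 5 to 68. In neuroblast-like and interneuron-like cells it was 27, against 10 with no filter, 46 on summed UMIs, 9 and 14 at the lower and higher resolution, 18 without the Zic1 and Zic4 cells, 17 with members kept, 17 with globin-rich cells kept, and 13 to 99 with 1 library left out. The Isl1 split had 47, against 11 with a pseudocount of 0.01, 26 with no library term and 33 to 45 with 1 library left out. The Foxp1 split had 2, against 17 without thinning, 0 to 2 with 1 library left out and 0 with each of 2000 UMIs, a pseudocount of 0.01, no filter, no library term, members kept, doublets left out and globin-rich cells kept. The Meis2 split had 337, against 1274 without thinning, 195 at 2000 UMIs, 206 with a pseudocount of 0.01, 135 with no filter, 134 with no library term, 528 with globin-rich cells kept, 39 and 10 in the interneuron-like and neuroblast-like clusters alone, and 168 to 261 with 1 library left out. The cause of these shifts was not tested.

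The mean number of members per striatal cell was 3.51 over libraries, 3.86 without thinning and 3.47 to 3.55 with 1 library left out. The genotype difference in the striatal share was -0.45 on the log2 odds scale and turned positive without WT6 (0.0075) and without Het5 (0.0782), with -0.98 to 0.0782 over the libraries left out. Some members changed direction in some settings, among them Six3 and Isl1, which had been called. By genotype in the striatal cluster, Foxp2 was at -0.13 to 0.52 with 1 library left out. Over all cells, Foxp1 was at -0.44 to 0.0448, Meis2 at -0.0875 to 0.045 and Meis1 at -0.19 to 0.0779. Six3 by genotype was 0.18 at the lower resolution, where the interneuron-like cluster also held the striatal cells, Foxp1 in the Isl1 split was 0.0651 at 2000 UMIs, and Isl1 in the Meis2 split was -0.0449 in the neuroblast-like cluster alone. In the Isl1 split, Ebf1 and Zfp503 were called in all 13 alternatives, at 1.42 to 2.00 and 1.01 to 1.46, and Six3 in 12 of 13.

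No paired analysis was possible because the cell-name prefixes carry no replicate number of the labels. At the lower resolution no striatal and no neuroblast-like cluster was found, so striatal results have no value there. Depth limits what can be said of Ikzf1 (3 UMIs in striatal cells) and of the adult pathway genes. With 2 fetuses per genotype, differences within the spread between fetuses were not detectable.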

Other observations

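The subpallial comparison in which Isl1 and Six3 were called also called other transcription factor genes lower in Setd5+/- cells, singled out after their values were seen: Zic1 (log2 -1.91, SE 0.35), Zic4 (-2.22, SE 0.36), Otx2 (-1.25, SE 0.25) and Zfhx3 (-0.92, SE 0.19), each under limma with Benjamini-Hochberg adjustment at adjusted p = 0.0120, 0.00469, 0.0242 and 0.0390. The group of cells led by Fgf15, Zic4 and Zic1 in these clusters was smaller in both Setd5+/- libraries. With these cells left out, Zic4 was still called (-1.53, adjusted p = 0.000757), Zic1 (-1.06, adjusted p = 0.0624) and Zfhx3 (-0.50, adjusted p = 0.998) were not, and Otx2 did not pass the filter on low values. Nr2f1, a COUP-TF receptor, was higher (0.90, SE 0.18, adjusted p = 0.0196), and was also called without these cells (0.68, adjusted p = 0.0161).

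Of the striatal neuron-like cells, 129 held neither Ebf1 nor Six3. In these cells Isl1 was at 4.21 counts per 10000, Zfp503 at 3.37, Meis1 at 1.43 and Ccnd2 at 22.6, against 7.16, 3.97, 0.780 and 4.18 in cells with Ebf1 alone and 1.56, 1.75, 0.808 and 18.4 in cells with Six3 alone. Their median depth, 3586 UMIs, was close to that of the other cells. Cells with neither made up 32.3%, 36.5%, 37.0% and 32.6% of the striatal cells of WT3, WT6, Het5 and Het9. These are means over cells, given as a description.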
